A study of Saccharomyces cerevisiae with 18 samples.

Results

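The genes described are those of reductive iron uptake in budding yeast (Saccharomyces cerevisiae) and their closest partners, followed through exposure to the 3 isomers of nitrophenol. They were chosen by name: FET3, FTR1, FRE1, FRE2, FRE3, CCC2, ATX1, FET4, AFT1 and AFT2, 10 genes, of 5365 genes with a named probe on the array. A probe was annotated for 9 of them, 1 probe each. AFT1 was not analysed here. FRE2 had a value on only 1 o-nitrophenol array and is described without a test, which leaves 8 genes tested among 5096.

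Yeast takes up iron from rich medium mainly by first reducing it. Metal reductases of the Fre family at the cell surface turn ferric into ferrous iron, the multicopper oxidase Fet3 oxidises it again, and the permease Ftr1, with which Fet3 forms a complex, carries it in. Fet3 works only when loaded with copper, which the chaperone Atx1 brings to the pump Ccc2 in the Golgi membrane, so iron uptake depends on copper. The activators Aft1 and Aft2 switch these genes on when iron is scarce, together with the siderophore uptake genes. Fet4 is a separate transporter of low affinity that carries ferrous iron and other metals without the oxidase.

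Cells of strain S288C growing exponentially in YPD (a rich medium with glucose) at 25 °C were exposed for 2 h. The final concentration was 1.5 mM for p-nitrophenol, 5 mM for the m isomer and 3 mM for the o isomer. The isomers differ in where the nitro group stands on the phenol ring, and they were given at different doses, so isomer and dose cannot be told apart. Each isomer had 3 arrays, 9 in all, pairing Cy5-labelled polyA RNA of exposed cells with Cy3-labelled RNA taken before exposure. The labels number the arrays without saying that they came from separate cultures, so p-values measure the spread between these arrays, which may be technical. Each value is a log2 ratio of the channels. Values above 0 are taken as more RNA after exposure, which the dye labels make likely but the table does not state. No untreated culture was taken at 2 h and no dyes were swapped, so growth over that time and dye effects are part of each treated-to-untreated ratio. The ratios come from whole cultures, and fewer cells with a transcript cannot be told apart from less of it per cell.

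The arrays numbered 1 stood apart. They correlated with the other arrays of their group at r of 0.50 to 0.61 across genes, against 0.84 to 0.87 for arrays 2 and 3 (genes are not independent replicates). The arrays held values for 1970 to 5343 genes, the fewest on m-nitrophenol array 1, which lacks FTR1, FRE2, CCC2 and ATX1. Counts of called genes are also given without the 3 of them, in fits where the share of all genes called was larger too. High- and low-power scans of a member on an array differed by a median of 0.111 and by 0.775 at most. They were averaged where both had a value. On o-nitrophenol array 1 no member had a low-power value.

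Across the treatments the reductive iron genes did not move as a block. After o-nitrophenol, FET3, FRE1, FTR1 and FET4 fell and ATX1 rose, 5 of the 8 tested genes. After p-nitrophenol CCC2, ATX1 and AFT2 rose while FRE1 and FTR1 fell, also 5 of 8. After m-nitrophenol only CCC2 rose, 1 of 8. Of all 5096 genes, 32.4% passed in o-nitrophenol, 24.9% in p-nitrophenol and 17.9% in m-nitrophenol (limma with Benjamini-Hochberg adjustment, threshold 0.05), so the share in m-nitrophenol was close to the background and the other 2 were above it. By direction, 18.7% of all genes were lower and 13.8% higher in o-nitrophenol, 11.9% lower and 13% higher in p-nitrophenol, and 9.65% lower and 8.26% higher in m-nitrophenol. The median over the 8 genes was -0.84, 0.01 and 0.04 in o-, p- and m-nitrophenol, beside -0.17, 0.10 and 0.04 over all genes. Without the arrays numbered 1, 7 genes passed in p-nitrophenol (3 higher, 4 lower), 3 in m-nitrophenol (2 higher, 1 lower) and 5 in o-nitrophenol (1 higher, 4 lower), with backgrounds of 42.1%, 40.1% and 51.5%.

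**Figure D1:**
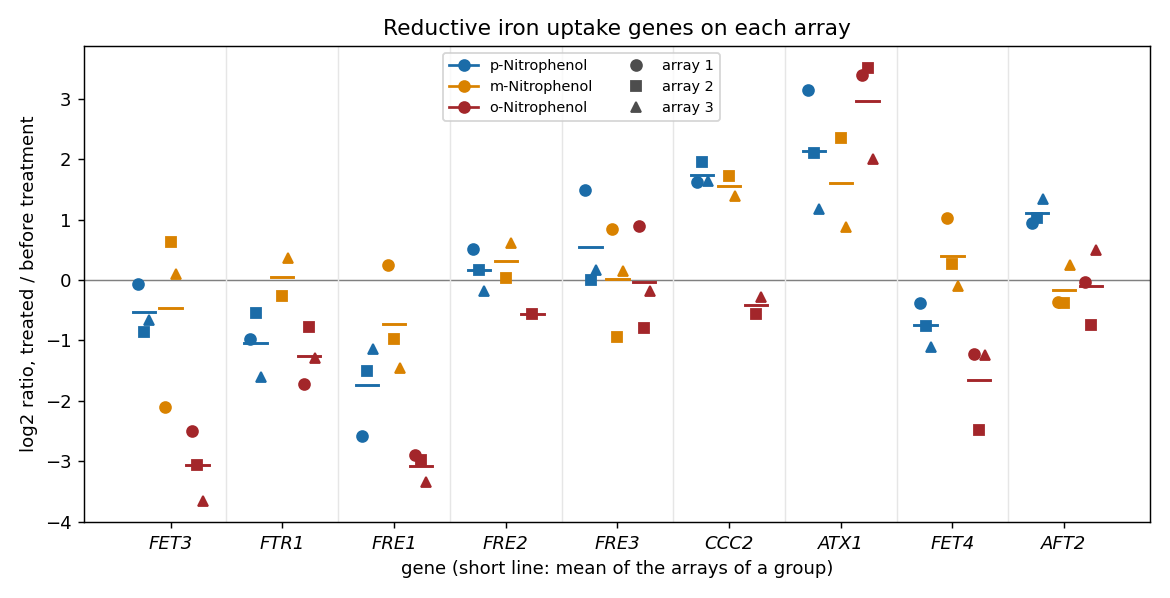
Log2 ratio of treated over untreated RNA (vertical axis) of the 9 genes with a probe on each array. Colours are isomers, symbols are array numbers and short lines are group means. The o-nitrophenol arrays of FET3 and FRE1 lie between -3.65 and -2.50, and CCC2 lies between 1.40 and 1.95 in the other isomers but below 0 in o-nitrophenol.

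FET3, the ferroxidase, had the values -2.50, -3.06 and -3.65 on o-nitrophenol arrays 1, 2 and 3. On the p-nitrophenol arrays it stood at -0.06, -0.86 and -0.67, and on the m-nitrophenol arrays at -2.10, 0.63 and 0.10. Every o-nitrophenol array lay below every other array, with m-nitrophenol array 1 the nearest of these. The mean in o-nitrophenol was -3.07 ± 0.46 (standard error of the limma fit, n = 3 arrays, adjusted p = 0.00132), an 8.40-fold fall that ranked 40th lowest of 5096 genes. The means in p-nitrophenol (-0.53 ± 0.46, adjusted p = 0.418) and m-nitrophenol (-0.46 ± 0.46, adjusted p = 0.521) did not pass. The m-nitrophenol value rests on array 1, which had a value from the high-power scan alone. Without that array the mean was 0.37 and turned positive (adjusted p = 0.521), and without all 3 arrays numbered 1 FET3 passed in p-nitrophenol (-0.77, adjusted p = 0.0403).

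FTR1, the permease that pairs with Fet3, changed less. It stood at -1.73, -0.77 and -1.30 on the o-nitrophenol arrays and at -0.98, -0.54 and -1.61 on the p-nitrophenol arrays, ranges that overlap almost wholly. On m-nitrophenol arrays 2 and 3 it stood at -0.26 and 0.37, above all arrays of the other isomers. FTR1 fell in o-nitrophenol by 1.27 ± 0.31 (n = 3, adjusted p = 0.0130) and in p-nitrophenol by 1.04 ± 0.31 (n = 3, adjusted p = 0.0348), 2.40-fold and 2.06-fold. The mean in m-nitrophenol was 0.06 ± 0.37 (n = 2, adjusted p = 0.934), a value below 0 when each array was centred on its median. The p-nitrophenol call ended without any single p-nitrophenol array (adjusted p = 0.0611 to 0.206) and without m-nitrophenol array 2 or 3 or o-nitrophenol array 3 (0.0515 to 0.0561). The o-nitrophenol call ended without o-nitrophenol array 3 (0.0690) and in the low-power scans alone (0.0761).

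The ferroxidase and the permease thus moved by unequal amounts on the o-nitrophenol arrays. Within the same array FET3 minus FTR1 was -0.77, -2.28 and -2.35 on o-nitrophenol arrays 1, 2 and 3 on the log2 scale. On the p-nitrophenol arrays the difference FET3 minus FTR1 was 0.92, -0.33 and 0.94, and on m-nitrophenol arrays 2 and 3 it was 0.89 and -0.27. All 3 o-nitrophenol differences were below the lowest of the other 5, and this ordering was not tested. The pair was picked for comparison because the proteins act as 1 complex. No share over all gene pairs was computed. CCC2 minus ATX1 is given below, and the other pairs compared did not set o-nitrophenol apart in this way. FET3 minus CCC2 was -2.50 and -3.37 on o-nitrophenol arrays 2 and 3, and -2.82 on p-nitrophenol array 2. On m-nitrophenol array 1, FET3 minus FET4 was -3.13 and FET3 minus FRE1 -2.34, each below all o-nitrophenol arrays. FRE1 minus FRE2 was -2.42 on o-nitrophenol array 2 and -3.10 on p-nitrophenol array 1.

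Among the reductase genes FRE1 fell in o- and p-nitrophenol and FRE3 passed in no isomer. FRE1, whose product reduces both iron and copper, stood at -2.90, -2.98 and -3.34 on the o-nitrophenol arrays (SD 0.23). On the p-nitrophenol arrays it stood at -2.58, -1.51 and -1.14, and on the m-nitrophenol arrays at 0.25, -0.98 and -1.46. All o-nitrophenol arrays were lower than all other arrays, while the p- and m-nitrophenol arrays overlapped. FRE1 fell 8.41-fold in o-nitrophenol (-3.07 ± 0.37, n = 3, adjusted p = 0.000422, 39th lowest of 5096) and 3.35-fold in p-nitrophenol (-1.75 ± 0.37, n = 3, adjusted p = 0.00848). Both calls held under every alternative that gave FRE1 a value, with adjusted p of at most 0.00683 and 0.0456. In m-nitrophenol the mean was -0.73 ± 0.37 (n = 3, adjusted p = 0.190), with array 1 on the other side of 0 from arrays 2 and 3. Without the arrays numbered 1 it was -1.22 and passed (adjusted p = 0.00503).

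FRE3, a reductase of siderophore-bound iron, stood at 1.49, 0.01 and 0.16 on the p-nitrophenol arrays, at 0.84, -0.94 and 0.15 on the m-nitrophenol arrays and at 0.89, -0.80 and -0.19 on the o-nitrophenol arrays. The groups overlap, and array 1 was the highest in each. None of its means passed (0.55, 0.02 and -0.03 ± 0.43, n = 3 each, adjusted p = 0.371, 0.984 and 0.964), and with 95% intervals reaching from -0.98 to 0.93 in o-nitrophenol a change up to about that size could not be seen. FRE2, a ferric reductase, stood at 0.52, 0.17 and -0.19 on the p-nitrophenol arrays, at 0.03 and 0.62 on m-nitrophenol arrays 2 and 3, and at -0.56 on o-nitrophenol array 2. Within an array FRE1 lay below FRE3 on all 9 arrays, with a difference from -0.04 on m-nitrophenol array 2 to -4.07 on p-nitrophenol array 1. On the o-nitrophenol arrays FRE1 minus FRE3 was -3.80, -2.18 and -3.15. Reductases of this family have related sequences, and whether their probes read each other was not tested.

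Of the other reductase family genes, all 6 of which were tested, FRE6 (-1.26 ± 0.32, adjusted p = 0.0147) and FRE8 (-1.62 ± 0.45, adjusted p = 0.0267) fell in o-nitrophenol, and none passed in p- or m-nitrophenol. FRE6 acts at the vacuole. Both calls ended without o-nitrophenol array 2 or 3 (adjusted p up to 0.108 and 0.162), and FRE8 was at -1.04 without array 2. With the arrays numbered 1 left out, 3 of the 6 fell in p-nitrophenol, 1 rose and 1 fell in m-nitrophenol, and 5 fell in o-nitrophenol. The shares of all genes in those fits were 42.1%, 40.1% and 51.5%. The median over the 6 genes was -1.26 in o-nitrophenol, -0.53 in p-nitrophenol and -0.21 in m-nitrophenol, beside -0.17, 0.10 and 0.04 over all genes.

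The copper delivery genes CCC2 and ATX1 parted in o-nitrophenol, while the means of both were above 0 in p- and m-nitrophenol. Against untreated cells neither passed as lower in o-nitrophenol, where FET3 did. Between isomers the mean of CCC2 was lower in o-nitrophenol than in the other isomers, like that of FET3, while that of ATX1 was higher. CCC2, the Golgi copper pump, stood at 1.62, 1.95 and 1.64 on the p-nitrophenol arrays and at 1.73 and 1.40 on m-nitrophenol arrays 2 and 3. On o-nitrophenol arrays 2 and 3 it stood at -0.56 and -0.28, so that all 5 arrays of the other isomers were above 0 and both o-nitrophenol arrays below it. CCC2 rose 3.34-fold in p-nitrophenol (1.74 ± 0.25, n = 3, adjusted p = 0.00277, 159th highest of 5096) and 2.96-fold in m-nitrophenol (1.56 ± 0.30, n = 2, adjusted p = 0.0110). The mean in o-nitrophenol was -0.42 ± 0.30 (n = 2, adjusted p = 0.316). The m-nitrophenol call ended without m-nitrophenol array 2 (adjusted p = 0.169) or 3 (0.0876), each of which leaves 1 array.

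ATX1, the copper chaperone that hands copper to Ccc2, lay above 0 on every array that measured it. Its values on the m- and o-nitrophenol arrays and on p-nitrophenol array 2 came from the high-power scan alone. It could not be tested in the low-power scans alone. It stood at 3.39, 3.52 and 2.00 on the o-nitrophenol arrays, at 3.14, 2.10 and 1.17 on the p-nitrophenol arrays, and at 2.35 and 0.87 on m-nitrophenol arrays 2 and 3. The 3 groups overlapped. ATX1 rose 7.83-fold in o-nitrophenol (2.97 ± 0.46, n = 3, adjusted p = 0.00195, 87th highest of 5096) and 4.40-fold in p-nitrophenol (2.14 ± 0.46, n = 3, adjusted p = 0.0106, 78th highest). In m-nitrophenol the mean of 1.61 ± 0.56 (n = 2) did not pass (adjusted p = 0.0748). It passed with quantile normalization (1.90, adjusted p = 0.0244), with the array number as a replicate block (1.97, adjusted p = 0.00707) and without the arrays numbered 1 (1.61, adjusted p = 0.0211). The p-nitrophenol call ended without p-nitrophenol array 1 (0.0564) or 2 (0.0527).

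CCC2 and ATX1, successive steps of copper delivery, lay apart on the o-nitrophenol arrays. On arrays 2 and 3 CCC2 minus ATX1 was -4.08 and -2.28. On the p-nitrophenol arrays it was -1.52, -0.15 and 0.47, and on m-nitrophenol arrays 2 and 3 it was -0.62 and 0.53. The 2 o-nitrophenol differences were below all 5 others, which was not tested.

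**Figure D2:**
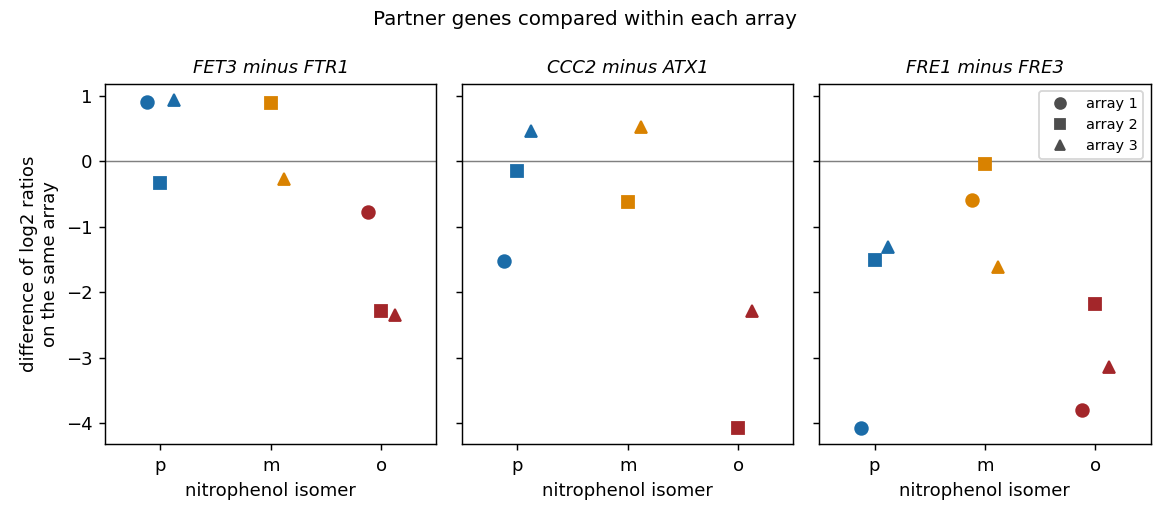
Difference of log2 ratios between partner genes on the same array (vertical axis) for each isomer, with array numbers as symbols. FET3 minus FTR1 runs from -2.35 to -0.77 and CCC2 minus ATX1 from -4.08 to -2.28 in o-nitrophenol, below the arrays of the other isomers. FRE1 minus FRE3 is below 0 on all 9 arrays.

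FET4, the low-affinity transporter, followed FTR1 and FET3 in direction in o-nitrophenol. It stood at -1.23, -2.48 and -1.24 on the o-nitrophenol arrays, at -0.38, -0.76 and -1.11 on the p-nitrophenol arrays, and at 1.03, 0.27 and -0.09 on the m-nitrophenol arrays. The 3 groups did not overlap, and o-nitrophenol was lowest and m-nitrophenol highest. FET4 fell 3.14-fold in o-nitrophenol (-1.65 ± 0.33, n = 3, adjusted p = 0.00458). The means in p-nitrophenol (-0.75 ± 0.33, adjusted p = 0.118) and m-nitrophenol (0.40 ± 0.33, adjusted p = 0.423) did not pass, and without the arrays numbered 1 the p-nitrophenol mean did (-0.93, adjusted p = 0.0413).

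Rox1, a repressor of genes used at low oxygen, is known to act on FET4 too, and its list is given beside it. ROX1 itself rose in o-nitrophenol by 1.13 ± 0.31 (adjusted p = 0.0201), a call that ended without o-nitrophenol array 2 or 3. Of 9 tested genes of this list, 4 rose and 2 fell in o-nitrophenol, and 4 fell in p-nitrophenol and 2 in m-nitrophenol. Of all genes, 32.4%, 24.9% and 17.9% passed in o-, p- and m-nitrophenol. In o-nitrophenol CYC7, a cytochrome c gene, rose by 4.45 ± 0.79 (adjusted p = 0.00277) and COX5B, a cytochrome oxidase subunit gene, by 3.32 ± 0.58 (0.00261), while the mannoprotein gene TIR1 fell by 1.90 ± 0.49 (0.0167). In p-nitrophenol HEM13, of heme synthesis, fell by 3.49 ± 0.38 (0.000864) and TIR1 by 4.03 ± 0.49 (0.00135). ANB1, a translation factor gene repressed by Rox1, fell in p-nitrophenol (-1.46 ± 0.38, 0.0228), and TIR2 fell in p-nitrophenol (-1.90 ± 0.34, 0.00579). In m-nitrophenol TIR1 fell by 3.91 ± 0.60 (0.00345) and HEM13 by 1.64 ± 0.47 (0.0410). The calls of ANB1 in p-nitrophenol, of TIR1 in m- and o-nitrophenol and of HEM13 in m-nitrophenol (-1.01 without m-nitrophenol array 3) ended in some fits without an array. That of HEM13 in m-nitrophenol held in 10 of 17 alternatives, and was also lost in the high-power scans and with the replicate block. Arrays 2 and 3 alone gave other counts: 6 genes of the list fell in p-nitrophenol, and 1 rose and 4 fell in m-nitrophenol. In o-nitrophenol 5 rose and 2 fell. The shares of all genes in those fits were 42.1%, 40.1% and 51.5% in p-, m- and o-nitrophenol.

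AFT2, the smaller contributor among the iron activators, rose only in p-nitrophenol among the tests against untreated cells. It stood at 0.94, 1.03 and 1.35 on the p-nitrophenol arrays, at -0.36, -0.38 and 0.25 on the m-nitrophenol arrays, and at -0.03, -0.74 and 0.49 on the o-nitrophenol arrays. The p-nitrophenol arrays lay above all others. AFT2 rose 2.15-fold (1.11 ± 0.28, n = 3, adjusted p = 0.0192), a call that ended without p-nitrophenol array 2 (0.0766) or 3 (0.111). The means in m-nitrophenol (-0.16 ± 0.28, adjusted p = 0.731) and o-nitrophenol (-0.09 ± 0.28, adjusted p = 0.820) did not pass, and the o-nitrophenol value turned positive when arrays were centred or quantile normalized.

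The isomers were then compared with each other. Of the 8 genes in 3 contrasts CCC2 alone passed, and only between o- and p-nitrophenol: it was 4.47-fold lower in o-nitrophenol (difference -2.16 ± 0.39, 95% interval -3.06 to -1.26, adjusted p = 0.0445). That is 1 of 8 genes, beside 1.18% of all 5096 genes in this contrast (0.353% lower and 0.824% higher). The call ended with centred (0.0559) or quantile normalized arrays (0.0506) and without p-nitrophenol array 2 or 3, m-nitrophenol array 2 or 3, or o-nitrophenol array 2 or 3 (0.105 to 0.179), while the difference stayed between -2.30 and -1.94 in every alternative that gave a value. Of all genes, 0.726% passed between o- and m-nitrophenol and 0.0196% between m- and p-nitrophenol, and 0.805% in the F test of any difference among the isomers. None of the 8 genes passed in these 3 tests.

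FET3 lay lower in o-nitrophenol than in p-nitrophenol by 2.54 ± 0.65 (interval -3.98 to -1.10, 20th lowest of 5096, adjusted p = 0.0830) and than in m-nitrophenol by 2.61 ± 0.65 (interval -4.05 to -1.18, adjusted p = 0.0793), differences that exclude 0 but missed the threshold across all genes. FRE1 differed by -2.34 ± 0.52 between o- and m-nitrophenol (interval -3.49 to -1.20, adjusted p = 0.0582) and by -1.33 ± 0.52 between o- and p-nitrophenol (-2.47 to -0.18, adjusted p = 0.199). FET4 differed by -2.05 ± 0.46 between o- and m-nitrophenol (-3.08 to -1.02, adjusted p = 0.0614), and CCC2 by -1.98 ± 0.43 (-2.97 to -1.002, adjusted p = 0.0673). When the arrays numbered 1 were omitted, these 4 genes passed between o- and m-nitrophenol (FET3 -3.72, FRE1 -1.94, FET4 -1.94 and CCC2 -1.98, adjusted p = 0.000783, 0.00685, 0.0186 and 0.00502), and FET3, FRE1 and CCC2 between o- and p-nitrophenol (-2.59, -1.83 and -2.22, adjusted p = 0.00384, 0.0106 and 0.00457). The background in those fits was 20.6% and 21.2% of all genes. Between m- and p-nitrophenol 0 of the 8 passed without these arrays, beside 5.71%, and in the F test 4 of 8 passed, beside 26.4%. Leaving out single arrays also made calls between o- and m-nitrophenol: FET3 without m-nitrophenol array 1 (-3.44, 0.0182) or o-nitrophenol array 1 (-2.90, 0.0470), FET4 without p-nitrophenol array 1 (0.0486) or o-nitrophenol array 1 (0.0380), FRE1 without p-nitrophenol array 1 (-2.34, 0.0358) or o-nitrophenol array 1 (-2.43, 0.0439), and CCC2 without o-nitrophenol array 1 (0.0320). CCC2 had no value on o-nitrophenol array 1, so its own values and its difference of -1.98 were the same in that fit. With the array number as a replicate block FET4 passed between o- and m-nitrophenol (-2.05, adjusted p = 0.0339). Between o- and p-nitrophenol FET3 passed without m-nitrophenol array 1 (-2.54, 0.0285) and in the low-power scans alone (-2.70, 0.0209). In the low-power scans alone, which left 7 of the 8 genes, FET3, FET4 and CCC2 passed between o- and m-nitrophenol.

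Between m- and p-nitrophenol the intervals were too wide to tell small differences from none. AFT2 was lower in m-nitrophenol by 1.27 ± 0.40 (interval -2.16 to -0.38, adjusted p = 0.609), and FET4 and FTR1 were higher by 1.15 ± 0.46 (0.12 to 2.18, adjusted p = 0.657) and 1.10 ± 0.48 (0.02 to 2.19, adjusted p = 0.678). CCC2 differed by -0.17 ± 0.39, with an interval from -1.07 to 0.72. FTR1 was close between o- and p-nitrophenol, at -0.22 ± 0.43 (interval -1.19 to 0.75), and its sign turned with either scaling. ATX1 was higher in o-nitrophenol than in p-nitrophenol by 0.83 ± 0.64 (interval -0.62 to 2.28) and than in m-nitrophenol by 1.36 ± 0.72 (-0.26 to 2.98), neither of which passed (adjusted p = 0.504 and 0.360). Counted by overlap, arrays of FET3, FRE1, CCC2, FET4 and AFT2 were separate between o- and p-nitrophenol, 5 of 8 tested genes beside 31.1% of all genes. Between o- and m-nitrophenol those of FET3, FTR1, FRE1, CCC2 and FET4 were separate, 5 of 8 beside 38.4%, and between m- and p-nitrophenol those of FTR1, FET4 and AFT2, 3 of 8 beside 25.3%.

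**Figure D3:**
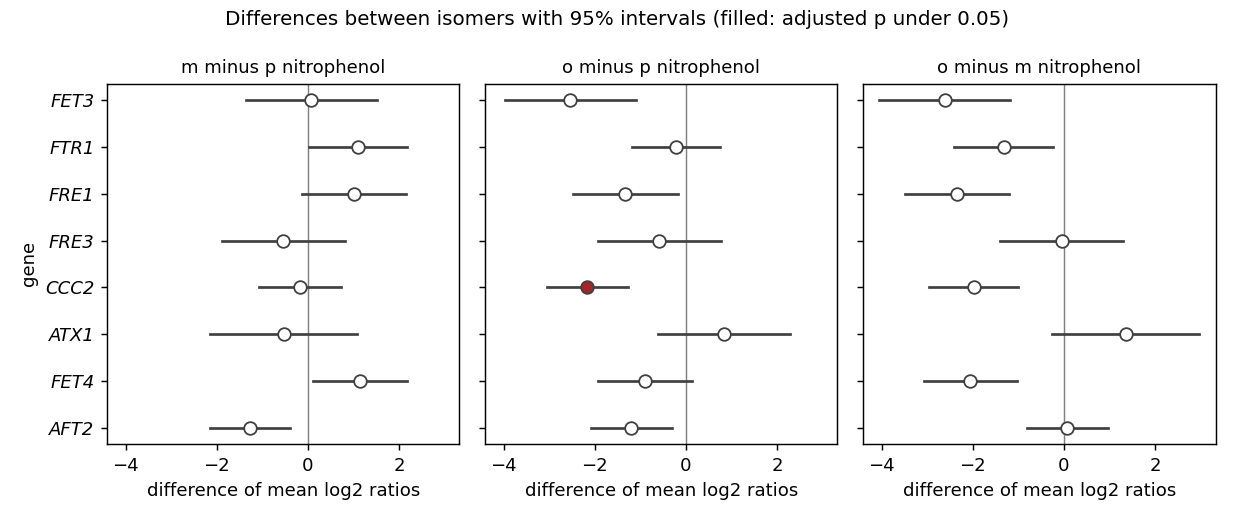
Difference between the mean log2 ratios of isomers (horizontal axis) for the 8 tested genes, with 95% intervals of the limma fit. Filled points passed an adjusted p of 0.05. CCC2 between o- and p-nitrophenol, at -2.16, is the only filled point, and FET3, FTR1, FRE1, CCC2 and FET4 have intervals below 0 between o- and m-nitrophenol.

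Among the 1756 or 1757 other genes with values on all 9 arrays, the pattern of FET3 was nearest to GLO3, MTD1 and CDC42, with root mean square differences of 0.955, 0.981 and 0.982 over 9 arrays, beside a median of 2.21 over all these genes. FTR1 was nearest to SAH1, STE4 and ORM1 (0.351, 0.429 and 0.461 over 8 arrays, median 1.53). The member nearest to FTR1 was FET4, at 0.735 over 8 arrays. FET3 lay at 1.33 from FTR1 over 8 arrays, and at 1.40 from FRE1 and 1.42 from FET4 over 9 arrays. The 9 include m-nitrophenol array 1, which FTR1 lacks. On it FET3 minus FET4 was -3.13 and FET3 minus FRE1 -2.34, so these distances do not rank the members against FET3. ATX1 and FRE1 lay farthest apart of all pairs of members with values on 7 or more arrays, at 4.72.

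The remaining genes of iron supply are given by list. The counts stand beside 24.9%, 17.9% and 32.4% of all genes passing in p-, m- and o-nitrophenol. Without the arrays numbered 1 these shares were 42.1%, 40.1% and 51.5%. Siderophore uptake, by which yeast takes iron bound to chelators of other microbes, rose in 3 of 6 tested genes in p-nitrophenol and 3 of 6 in m-nitrophenol, and 1 of 6 fell in o-nitrophenol. The ferrichrome transporter gene ARN1 rose in p-nitrophenol (1.45 ± 0.30, adjusted p = 0.00798) and m-nitrophenol (1.99 ± 0.30, 0.00256), and ARN2 rose in p-nitrophenol (1.94 ± 0.58, 0.0341). The mannoprotein gene FIT3 rose in m-nitrophenol by 2.43 ± 0.56 (0.0179). SIT1, the ferrioxamine transporter gene, stood at 1.18, 1.00 and 1.00 on the p-nitrophenol arrays, at 2.12 and 2.14 on m-nitrophenol arrays 2 and 3, and at -1.53, -3.24 and -2.89 on the o-nitrophenol arrays. It rose in p-nitrophenol (1.06 ± 0.33, 0.0426) and m-nitrophenol (2.13 ± 0.40, 0.00805) and fell in o-nitrophenol (-2.55 ± 0.33, 0.000882), and the differences of o-nitrophenol from p-nitrophenol (-3.61 ± 0.46, 0.00897) and m-nitrophenol (-4.68 ± 0.52, 0.0106) passed. ARN1 passed between o- and m-nitrophenol (-2.51 ± 0.42, 0.0387). List medians were 1.17, 2.03 and -0.33 in p-, m- and o-nitrophenol, beside 0.10, 0.04 and -0.17 over all genes. The call of SIT1 in p-nitrophenol held in only 7 of 16 alternatives. It ended in the high-power scans, with centring or quantile normalization, and without any single p-nitrophenol array, m-nitrophenol array 2 or 3, or o-nitrophenol array 3 (adjusted p up to 0.136). That of ARN2 ended without any single p-nitrophenol array or m-nitrophenol array 2 (up to 0.183), and those of SIT1 and FIT3 in m-nitrophenol without m-nitrophenol array 2 or 3 (up to 0.107 and 0.162). On arrays 2 and 3 alone, 3 genes rose in p-nitrophenol and 5 in m-nitrophenol, while 1 rose and 4 fell in o-nitrophenol, with medians of 0.86, 2.24 and -0.86.

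Of 10 tested further targets of Aft1 and Aft2, 4 rose in p-nitrophenol, 3 rose and 1 fell in m-nitrophenol, and 3 rose and 1 fell in o-nitrophenol. TIS11, whose product speeds the decay of mRNAs of iron-using proteins, rose in p-nitrophenol (2.42 ± 0.49, adjusted p = 0.00786) and m-nitrophenol (2.21 ± 0.49, 0.0139), and stood at 0.71, -1.75 and -1.05 on the o-nitrophenol arrays. HMX1, heme oxygenase, rose in m-nitrophenol (4.15 ± 1.05, 0.0299), with 4.28 and 4.01 on arrays 2 and 3. On the p-nitrophenol arrays it stood at 5.28, 0.01 and 0.85, and on o-nitrophenol arrays 2 and 3 at -2.20 and -0.74. BNA2, of NAD synthesis, rose in p-nitrophenol (1.19 ± 0.25, 0.0132) and m-nitrophenol (1.82 ± 0.31, 0.00701), and CTH1, a relative of TIS11, fell in m-nitrophenol (-1.23 ± 0.37, 0.0463). The iron-sulfur scaffold genes ISU2 (3.23 ± 0.51, 0.00222) and ISU1 (2.02 ± 0.34, 0.00286) and the cyclin gene PCL5 (1.65 ± 0.33, 0.00496) rose in o-nitrophenol, and AKR1 fell (-1.17 ± 0.25, 0.00761). PCL5 (1.88 ± 0.33, 0.00439) and ISU1 (1.28 ± 0.34, 0.0255) also rose in p-nitrophenol. List medians were 1.19, 0.67 and -0.01 in p-, m- and o-nitrophenol. All the m-nitrophenol calls in this list ended without m-nitrophenol array 2 or 3. That of CTH1 held in 10 of 18 alternatives, and was also lost in the high-power scans and with the replicate block. In p-nitrophenol those of BNA2 and ISU1 ended without p-nitrophenol array 2 or 3 (adjusted p up to 0.0836 and 0.155) and that of TIS11 without array 3 (0.0508). With the arrays numbered 1 left out, 7 genes rose and 1 fell in p-nitrophenol, 4 rose and 1 fell in m-nitrophenol, and 5 rose and 5 fell in o-nitrophenol.

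Of 10 genes of iron transport at the vacuole and mitochondrion, 4 rose and 1 fell in p-nitrophenol, and 1 rose and 1 fell in each of m- and o-nitrophenol. CCC1, which stores iron in the vacuole, fell in p-nitrophenol (-1.67 ± 0.31, adjusted p = 0.00649), m-nitrophenol (-1.83 ± 0.38, 0.0117) and o-nitrophenol (-1.33 ± 0.31, 0.0116). MRS4, which carries iron into mitochondria, rose in p-nitrophenol (1.01 ± 0.26, 0.0218), m-nitrophenol (1.05 ± 0.32, 0.0481) and o-nitrophenol (1.47 ± 0.26, 0.00329), and its m-nitrophenol call held in 8 of 17 alternatives. FET5 and FTH1, relatives of FET3 and FTR1 at the vacuole, rose in p-nitrophenol (1.08 ± 0.28, 0.0239, and 1.24 ± 0.36, 0.0359). On m-nitrophenol arrays 2 and 3 FET5 stood at 1.11 and 1.14 and FTH1 at 0.87 and 1.33, also above 0, though neither passed there. FET5 stood at -0.01, -0.66 and -0.85 and FTH1 at -0.13, -1.12 and -1.10 on the o-nitrophenol arrays, neither passing there. Both p-nitrophenol calls ended without any single p-nitrophenol array (adjusted p up to 0.0923 and 0.183), and that of FTH1 also with the replicate block. CCC1 lost its m-nitrophenol call without m-nitrophenol array 2 or 3. Its o-nitrophenol call ended in the low-power scans and without o-nitrophenol array 3 (up to 0.0641). MRS4 lost its p-nitrophenol call without p-nitrophenol array 2 or 3 (up to 0.145). Arrays 2 and 3 alone gave other counts: 4 genes rose and 2 fell in p-nitrophenol, 5 rose and 1 fell in m-nitrophenol, and 1 rose and 5 fell in o-nitrophenol. The list medians were 0.88, 0.47 and -0.54 in p-, m- and o-nitrophenol.

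In iron sensing, 1 of 9 genes rose and 1 fell in p-nitrophenol, 2 fell in m-nitrophenol, and 1 rose and 2 fell in o-nitrophenol. Of all genes, 24.9%, 17.9% and 32.4% passed in p-, m- and o-nitrophenol, so these counts were close to the background. GRX4, a glutaredoxin that signals iron status to Aft1, fell in p-nitrophenol (-1.52 ± 0.38, adjusted p = 0.0179), m-nitrophenol (-1.57 ± 0.38, 0.0196) and o-nitrophenol (-1.39 ± 0.38, 0.0197), each call ending without certain arrays of its own isomer. YAP5, which activates CCC1 at high iron, rose in p-nitrophenol (2.30 ± 0.32, 0.00177) and o-nitrophenol (1.25 ± 0.32, 0.0151). ISA1, of iron-sulfur cluster assembly, fell in m-nitrophenol (-1.53 ± 0.46, 0.0484), and NFS1, the cysteine desulfurase that feeds it, in o-nitrophenol (-1.34 ± 0.33, 0.0147). The call of YAP5 in o-nitrophenol ended in the low-power scans and without o-nitrophenol array 1 or 2 (adjusted p up to 0.0874), and that of NFS1 without o-nitrophenol array 2 or 3 (up to 0.105). That of ISA1 held in 10 of 17 alternatives. When the arrays numbered 1 were omitted, 3 genes of iron sensing rose and 1 fell in p-nitrophenol. In m-nitrophenol 1 rose and 3 fell, and in o-nitrophenol 3 rose and 2 fell. The shares of all genes in those fits were 42.1%, 40.1% and 51.5%.

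In copper uptake and delivery the counts lay close to the shares of all genes, which were 24.9%, 17.9% and 32.4% in p-, m- and o-nitrophenol. Here 2 of 9 genes rose in p-nitrophenol, 1 in m-nitrophenol and 3 in o-nitrophenol, and none fell. They were COX17 (1.93 ± 0.41, 0.00914) and MAC1, the activator of copper uptake genes (0.99 ± 0.28, 0.0300), in p-nitrophenol. The metallothionein gene CRS5 rose in m-nitrophenol (1.57 ± 0.36, 0.0208) and o-nitrophenol (4.17 ± 0.29, 0.000107), where CUP2, the copper-responsive activator (1.43 ± 0.31, 0.00761), and the superoxide dismutase gene SOD1 (1.90 ± 0.60, 0.0354) rose too. SOD1 stood at -0.41, 3.10 and 3.01 on the o-nitrophenol arrays and had a mean of 3.05 without array 1, and its call was lost in 4 of 18 alternatives, without p-nitrophenol array 3, m-nitrophenol array 2 or o-nitrophenol array 2 or 3 (adjusted p up to 0.223). CRS5 was higher in o- than in p-nitrophenol by 3.95 ± 0.46 (0.00897). The call of CRS5 in m-nitrophenol ended without m-nitrophenol array 2 or 3 (1.04 without array 3, adjusted p = 0.262), that of CUP2 without o-nitrophenol array 2 or 3 (up to 0.0618), that of COX17 without p-nitrophenol array 1 (0.0509) and that of MAC1 without any single p-nitrophenol array (up to 0.129). On arrays 2 and 3 alone, 4 copper genes rose and 1 fell in p-nitrophenol. In m-nitrophenol 2 rose and 1 fell, and in o-nitrophenol 4 rose and 2 fell. The shares of all genes in those fits were 42.1%, 40.1% and 51.5%.

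Of 17 tested genes of iron-using proteins, 13 fell in p-nitrophenol, 10 in m-nitrophenol and 7 in o-nitrophenol, where 2 rose. The list medians were -2.07, -1.78 and -1.003, beside 0.10, 0.04 and -0.17 over all genes. HEM15, ferrochelatase, fell in p-nitrophenol (-2.96 ± 0.37, adjusted p = 0.00141), as did RLI1, a ribosome recycling factor with iron-sulfur clusters (-2.61 ± 0.35, 0.00321), aconitase ACO1 (-2.07 ± 0.37, 0.00439) and cytochrome c1 CYT1 (-1.97 ± 0.37, 0.00555). In m-nitrophenol RLI1 (-3.60 ± 0.35, 0.00156), ACO1 (-2.12 ± 0.37, 0.00461), the sterol desaturase gene ERG3 (-3.69 ± 0.66, 0.00553) and the Rieske protein gene RIP1 (-1.75 ± 0.33, 0.00958) fell. In o-nitrophenol ERG3 (-4.60 ± 0.66, 0.00108) and RLI1 (-2.59 ± 0.35, 0.00229) fell, while the catalase genes CTT1 (4.17 ± 0.58, 0.000964) and CTA1 (2.59 ± 0.33, 0.00119) rose. Both catalase genes were higher in o- than in p-nitrophenol, CTT1 by 6.28 ± 0.83 (0.00897) and CTA1 by 2.82 ± 0.52 (0.0474). In m-nitrophenol the calls of ACO1, ERG3 and RIP1 ended without m-nitrophenol array 2 or 3 (adjusted p up to 0.0558, 0.0735 and 0.122). With the arrays numbered 1 left out, 15 genes fell in each of p- and m-nitrophenol, and 12 fell and 2 rose in o-nitrophenol.

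**Figure D4:**
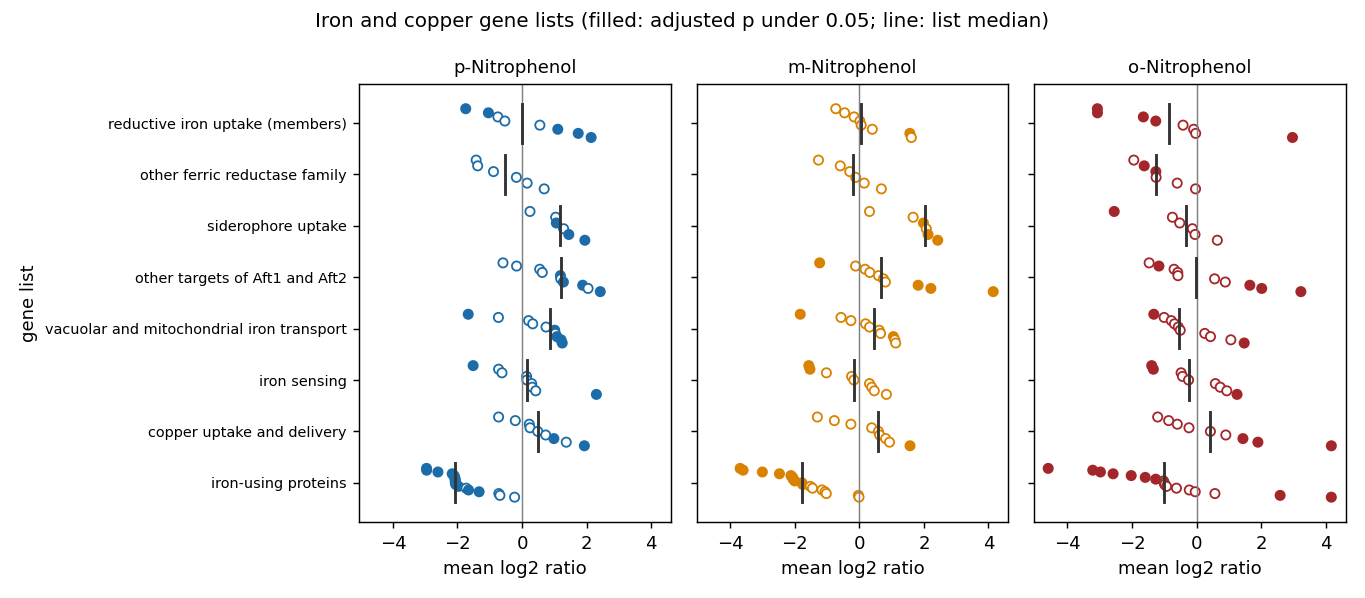
Mean log2 ratio (horizontal axis) of each tested gene of 8 lists in p-, m- and o-nitrophenol. Filled points passed an adjusted p of 0.05 and vertical lines are list medians. The siderophore list has its median at 1.17, 2.03 and -0.33 in p-, m- and o-nitrophenol, and iron-using proteins at -2.07, -1.78 and -1.003.

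The list genes shared the dependence on single arrays seen in the members. Of the called genes in the 9 other lists, 38 in p-nitrophenol, 26 in m-nitrophenol and 36 in o-nitrophenol, 16, 2 and 16 were called under every alternative that gave them a value. ARN1 in p- and m-nitrophenol, SIT1 in o-nitrophenol, CCC1 in p-nitrophenol, MRS4, ISU1, ISU2 and CRS5 in o-nitrophenol, YAP5 in p-nitrophenol and RLI1 in all 3 isomers were among these. None of the differences between isomers in these lists, 5 between o- and p-nitrophenol and 2 between o- and m-nitrophenol, was called under every alternative.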

How the data were processed

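The deposited values are log2 ratios per probe and scan, normalized by the authors with LOWESS on spots of flag 0, per the labels; how background was treated was not stated. The log2 scale was read from the values, 13 of which lie at log2 of 0.01. A merge of scans in GeneSpring, named in the labels, was not used. No spot intensities were analysed, so signal over background is unknown. Of 6912 probes 5513 had 1 gene symbol and 1399 none; 5360 of 5365 genes took current symbols by Entrez identifier from RefSeq (assembly R64). Coordinates were not used.

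High- and low-power values of an array were averaged where both were present, then probes of a gene (99 genes). limma 3.58.1 in R 4.3.3 fitted group means to 9 arrays (6 residual and 4.41 prior degrees of freedom) for the 5096 genes measured on 2 or more arrays in each group, with Benjamini-Hochberg adjustment per contrast. The F test was computed from each gene's own arrays. The number of arrays limits the precision, and the scripts were tested on simulated data. Members were named in every contrast, and of each of the 9 other lists up to 4 called genes per contrast, lowest adjusted p first; likeness was ranked by root mean square difference for FET3 and FTR1. Members and lists were chosen with earlier results of these data known. Alternatives covered the scans, scaling, filter, probes, array number as a block and left-out arrays.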

Additional observations from a re-analysis of the deposited data

Results flagged for a closer look

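Among the reductive iron genes and the list genes named in the text, differences between isomers are listed where the test of the difference passed or where every array of an isomer lay on the other side of 0 from every array of another. Among the reductive iron genes this held for CCC2, which was lower in o-nitrophenol than in p-nitrophenol by 2.16 on the log2 scale (difference -2.16, adjusted p = 0.0445) and than in m-nitrophenol (-1.98, adjusted p = 0.0673, not passing). Among the other iron and copper genes the tested differences of o- from p-nitrophenol that passed were SIT1 (-3.61), CRS5 (3.95), HEM13 (3.38), CTA1 (2.82) and CTT1 (6.28). Those of o- from m-nitrophenol were SIT1 (-4.68) and ARN1 (-2.51). Opposite signs on all arrays without passing the test were seen between o- and p-nitrophenol for ARN1 (-1.97), AKR1 (-1.71), FET5 (-1.59), FTH1 (-2.03), HMX1 (-3.51) and ZRT2 (1.88), with adjusted p from 0.0541 to 0.212. Between o- and m-nitrophenol they were seen for AKR1 (-1.76), FET5 (-1.63), FTH1 (-1.88), HMX1 (-5.62) and ZRT2 (0.94), with adjusted p from 0.0664 to 0.331.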

How the results depend on the processing

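Of 980 values of the 8 genes under alternatives, 880 kept direction and side of the threshold, 22 no longer passed, 35 newly passed and 43 took the opposite sign, 0 of them from a value that had passed. The cause was not tested. Beside 5, 1 and 5 genes called in p-, m- and o-nitrophenol, quantile normalization gave 2 and omission of the arrays numbered 1 gave 3 in m-nitrophenol. Genes measured on all 9 arrays gave 2, 0 and 3. That filter leaves 5 of the 8 genes, without FTR1, CCC2 and ATX1, and every called gene that it leaves kept its call. Low-power scans, which leave 7 genes without ATX1, gave 3 in o-nitrophenol. Between o- and p-nitrophenol 1 became 2 in low-power scans, 0 with centring or quantile normalization, and 3 without the arrays numbered 1. It was also 0 among genes on all 9 arrays, where CCC2 was not tested. Between o- and m-nitrophenol 0 became 3 in low-power scans and 4 without the arrays numbered 1, and in the F test 2 and 4. Without single arrays these counts ran from 2 to 5, 0 to 1 and 4 to 5 in p-, m- and o-nitrophenol, 0 to 2 for o- minus p-, 0 to 4 for o- minus m-nitrophenol and 0 to 2 in the F test. Of all 5096 genes, 1267, 913 and 1652 passed in p-, m- and o-nitrophenol. Of the 1757 genes on all 9 arrays, 525, 373 and 592 passed, so these counts have a smaller base. Low-power scans left 3776 genes. Without the arrays numbered 1 the counts were 2145, 2042 and 2622. Without single arrays they ran from 499 to 1701, 147 to 1277 and 841 to 1925. Between m- and p-nitrophenol 1 gene became 2 in low-power scans or with quantile normalization, 0 on all 9 arrays, 291 without the arrays numbered 1 and 0 to 4 without single arrays. Between o- and p-nitrophenol 60 became 111 in low-power scans, 23 on all 9 arrays, 1081 without the arrays numbered 1 and 6 to 211. Between o- and m-nitrophenol 37 became 12 in high- and 146 in low-power scans, 64 with centring, 1048 without the arrays numbered 1 and 2 to 293. In the F test 41 became 24 and 124 in high- and low-power scans, 73 with centring, 63 with quantile normalization, 21 on all 9 arrays, 1344 without the arrays numbered 1 and 3 to 165.

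With the array number as a replicate block, 2 of the 8 genes passed in m-nitrophenol and 1 between o- and m-nitrophenol, and of all genes 0 passed between m- and p-, 189 between o- and p- and 180 between o- and m-nitrophenol, with 185 in the F test. Deviations of same-numbered arrays correlated at 0.06 to 0.37, all above 0, and 9 of 9 arrays correlated best with their own number. Deviations were taken from the mean of each group, so the best matches are not separate from the correlations above 0. Together they are a hint of pairing from the data and not the design. The main fit left the arrays unpaired, and the fit with the replicate block shows how the counts change when they are paired. The all-gene median shifted with centring by 0.15 for o-nitrophenol against untreated cells, by 0.23 against p-nitrophenol and by 0.21 against m-nitrophenol, and with quantile normalization by 0.12, 0.13 and 0.12. With centring 849 genes were higher and 736 lower in o-nitrophenol (701 and 951 otherwise), 64 and 12 for o- minus p-nitrophenol (42 and 18), and 50 and 14 for o- minus m-nitrophenol (21 and 16).

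The opposite signs all belong to values that did not pass. In low-power scans they were FRE3 in p-nitrophenol (-0.000399) and m-nitrophenol (-0.13), FET3 in m-nitrophenol (0.41) and FTR1 for o- minus p-nitrophenol (0.081). In high-power scans they were FRE3 in o-nitrophenol (0.054) and AFT2 for o- minus m-nitrophenol (-0.049). With centring they were FTR1 (-0.020) and FRE3 (-0.012) in m-nitrophenol, FRE3 (0.12) and AFT2 (0.058) in o-nitrophenol, FTR1 for o- minus p- (0.011) and FRE3 for o- minus m-nitrophenol (0.13). With quantile normalization they were FTR1 in m-nitrophenol (-0.00859), FRE3 (0.038) and AFT2 (0.043) in o-nitrophenol, FET3 for m- minus p- (-0.010), FTR1 for o- minus p- (0.058) and FRE3 for o- minus m-nitrophenol (0.037). The replicate block gave FTR1 in m-nitrophenol (-0.042). Without the arrays numbered 1 they were FET3 (0.37) and FRE3 (-0.39) in m-nitrophenol, FTR1 for o- minus p- (0.039) and AFT2 for o- minus m-nitrophenol (-0.060). Without single arrays the ranges that cross 0 were, in m-nitrophenol, FET3 -0.999 to 0.37, FTR1 -0.26 to 0.37 and FRE3 -0.39 to 0.50, and in o-nitrophenol FRE3 -0.49 to 0.35 and AFT2 -0.38 to 0.23. For m- minus p-nitrophenol they were FET3 -0.47 to 0.90 and ATX1 -1.27 to 0.21, for o- minus p-nitrophenol FTR1 -0.51 to 0.029, and for o- minus m-nitrophenol FRE3 -0.53 to 0.36 and AFT2 -0.22 to 0.39. A fit that leaves 1 array in a group assumes that it varies like the other groups.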

Other observations

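Of 9 tested transporters of other metals and their regulators, 4 fell and 1 rose in p-nitrophenol, 1 fell and 1 rose in m-nitrophenol, and 5 fell and 1 rose in o-nitrophenol, with list medians of -0.80, -0.49 and -1.42 beside 0.10, 0.04 and -0.17 over all genes. Of all genes, 24.9%, 17.9% and 32.4% passed in p-, m- and o-nitrophenol, so the m-nitrophenol count was close to the background. ZRC1, the vacuolar zinc transporter gene, fell in p-nitrophenol (-1.89 ± 0.32, adjusted p = 0.00348), m-nitrophenol (-1.64 ± 0.32, 0.00786) and o-nitrophenol (-2.03 ± 0.32, 0.00173). The phosphate transporter gene PHO84, whose product also carries manganese, fell in p-nitrophenol (-2.88 ± 0.42, 0.00204) and o-nitrophenol (-1.89 ± 0.42, 0.00761), and ZRT2, a zinc transporter gene, in p-nitrophenol (-1.19 ± 0.34, 0.0277). SMF1, a manganese transporter gene, fell in o-nitrophenol (-1.42 ± 0.35, 0.0128). BSD2, which targets the Smf transporters for breakdown, rose in p-nitrophenol (1.62 ± 0.33, 0.00774), m-nitrophenol (1.17 ± 0.33, 0.0347) and o-nitrophenol (1.34 ± 0.33, 0.0125). The calls of ZRC1 and BSD2 in m-nitrophenol ended without m-nitrophenol array 2 or 3 (that of BSD2 also in the low-power scans and without p-nitrophenol array 3), those of BSD2 and SMF1 in o-nitrophenol without o-nitrophenol array 2 or 3, that of PHO84 in o-nitrophenol without array 2, and that of ZRT2 without p-nitrophenol array 2 or 3 (adjusted p from 0.0503 to 0.240 at their highest). SMF1 was at -2.17 in the low-power scans alone. On arrays 2 and 3 alone, 1 gene rose and 4 fell in p-nitrophenol, 1 rose and 2 fell in m-nitrophenol, and 3 rose and 5 fell in o-nitrophenol. The shares of all genes in those fits were 42.1%, 40.1% and 51.5%, and the m-nitrophenol count was not above its share.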
